A study of Mus musculus with 5 samples.

Results

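Classical Ly6c2-high monocytes from B16-F10 melanomas are described across 5 treatments. A droplet barcode was counted as one of them when at most 10% of its UMIs (unique molecular identifiers, 1 per captured RNA molecule) were mitochondrial and its UMIs met the following limits. Ly6c2, Chil3, Vcan and Hp together had to reach at least 5 UMIs. C1qa, C1qb and C1qc were limited to 2 UMIs together, and Ace, Adgre4, Treml4 and Ear2 to 1. Arg1 and Mmp12 together had to stay below 10 UMIs, and Cxcr2, Retnlg and G0s2 together below 3. Cd209a, Cd3e, Cd3d, Cd3g and Ncr1 had to be at 0. Members were thus chosen by their measured UMI counts of these genes, so the levels of those genes in them are a description only. The rule kept 2347 barcodes of 37074 with acceptable mitochondrial content: 587 in PBS, 770 with anti-PD1, 387 with the IL15 superagonist, 508 with the combination and 95 with the fusion.

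Classical monocytes leave the bone marrow through the chemokine receptor Ccr2 and enter inflamed tissue and tumours from the blood. There they can take on features of macrophages or of antigen-presenting cells, and they respond to type I interferons and to interferon gamma through overlapping sets of genes. Mouse classical monocytes carry the surface protein Ly6C, encoded in part by Ly6c2, whereas nonclassical monocytes lose it and patrol vessels.

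Every library came from mice given 500000 B16-F10 cells under the skin, a mouse melanoma line, with tumours taken at day 11. The 5 groups received PBS, an antibody to PD-1, an inhibitory receptor of T cells (anti-PD1), an IL15 superagonist, the superagonist with the antibody (combination), or a protein joining anti-PD1 to IL15 (fusion). One label of the combination names IL15 in place of the superagonist, and the labels place treatment after tumour resection, so the time from treatment to sampling is not known here, nor is the number of mice per library. Live CD45+ cells were sorted and about 16000 cells were loaded per library of a 5′ droplet kit. Because each treatment has 1 library, no difference below carries a test between treatments: all intervals cover counting error only, and differences between mice, tumours or sorts are not in them.

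Depth per member barcode was lowest in PBS. The median was 4723 UMIs in PBS, 6049 with anti-PD1, 6438 with the IL15 superagonist, 6795 with the combination and 6568 with the fusion. Member UMIs summed to 2930222, 4988247, 2523022, 3544555 and 650873 in the same order, so values for fusion, with 95 barcodes, are the least precise. A gene's level is given in CPM, its UMIs for every 1000000 member UMIs of that library. A fusion level of a few CPM therefore rests on few UMIs. Across the 10 pairs of libraries, 786 barcode sequences occurred in both libraries of a pair, and 2 of those were members in both.

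The label was first checked against Ccr2, a marker that the rule does not use. Ccr2 was at 689 CPM (659 to 719) in PBS, 583 (562 to 605) with anti-PD1, 529.5 (502 to 559) with the IL15 superagonist, 558 (533 to 583) with the combination and 496 (444 to 553) with the fusion, where brackets give the exact Poisson 95% interval of the count. It was lower in T-cell barcodes (at least 3 Cd3 UMIs and no Lyz2 or C1q UMI), at 65.99, 79.8, 104, 108 and 64.8 CPM in the same order. Lyz2, the lysozyme of monocytes and macrophages, reached 10880 CPM in PBS, 9181 with anti-PD1, 13760 with the IL15 superagonist, 16310 with the combination and 15040 with the fusion, and Csf1r, the receptor for the macrophage growth factor, 318, 324, 374, 369 and 398 CPM. Erythroid transcripts were at 0 UMIs in every library, and melanoma-cell markers summed to 2.39 to 18.6 CPM. Among the markers that the rule did use, Ly6c2 was at 2006, 1669, 1115, 1312 and 1429 CPM, Chil3 at 317, 479.5, 789.5, 680.2 and 1275, Vcan at 262, 194, 271, 238 and 141 and Hp at 272, 184, 325, 419 and 470.1. Ly6c2 was highest in PBS, and Chil3, a secreted chitinase-like protein, was highest with the fusion. The rule selects on the sum of these genes, so their order across libraries is a description only.

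Part of the barcodes that met the rule did not look like monocytes. Fewer than 3 Lyz2 UMIs were found in 353 of 2347 members (15.0%): 94 in PBS, 101 with anti-PD1, 83 with the IL15 superagonist, 68 with the combination and 7 with the fusion. Of these, 317 reached the rule through Ly6c2 alone, a gene that lymphocytes also use, and 285 had at least 3 UMIs of T-cell, NK-cell, B-cell or plasmacytoid dendritic cell markers. Over all members the plasmacytoid dendritic cell markers summed to 626, 358, 311, 342 and 259.7 CPM, against 2.09, 9.902, 22.2, 0.638 and 1.65 CPM without the Lyz2-low barcodes. The NK-cell markers outside the rule summed to 96.2, 206, 1309, 706 and 298 CPM and, without those barcodes, to 86.6, 105, 68.5, 118 and 229.7 CPM. The B-cell markers summed to 933, 153, 164, 142 and 52.2 CPM, or 84.04, 98.6, 60.5, 54.9 and 34.7 CPM without them. The T-cell markers outside the rule came to 78.2, 39.5, 133, 65.5 and 46.1 CPM, or 23, 15.9, 21.3, 12.1 and 24.8 CPM without them. Counts of genes, list medians and levels were also computed on the 1994 members with at least 3 Lyz2 UMIs, called the Lyz2-positive members. These values stand beside some of the results below. Of all members, 533 had at least 3 UMIs of T-cell, NK-cell, B-cell, plasmacytoid and mature dendritic cell markers together, more than the 353 Lyz2-low barcodes. The Lyz2-positive members therefore still include barcodes with markers of other lineages.

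At the edge of the rule, 67 barcodes in PBS had 4 UMIs of Ly6c2, Chil3, Vcan and Hp, just outside, and 78 had 5, just inside. The pairs of counts were 76 and 65 with anti-PD1, 40 and 46 with the IL15 superagonist, 39 and 40 with the combination, and 16 and 4 with the fusion. At least 3 Lyz2 UMIs were found in 86.6% of the PBS barcodes just outside and 78.2% of those just inside. These shares were 77.6% and 84.6% with anti-PD1, and 67.5% and 58.7% with the IL15 superagonist. They were 56.4% and 77.5% with the combination, and 68.75% and 100% with the fusion. The median member had a sum of 11 UMIs in PBS, 12 with anti-PD1, 11 with the IL15 superagonist, 14 with the combination and 17 with the fusion.

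**Figure D1:**
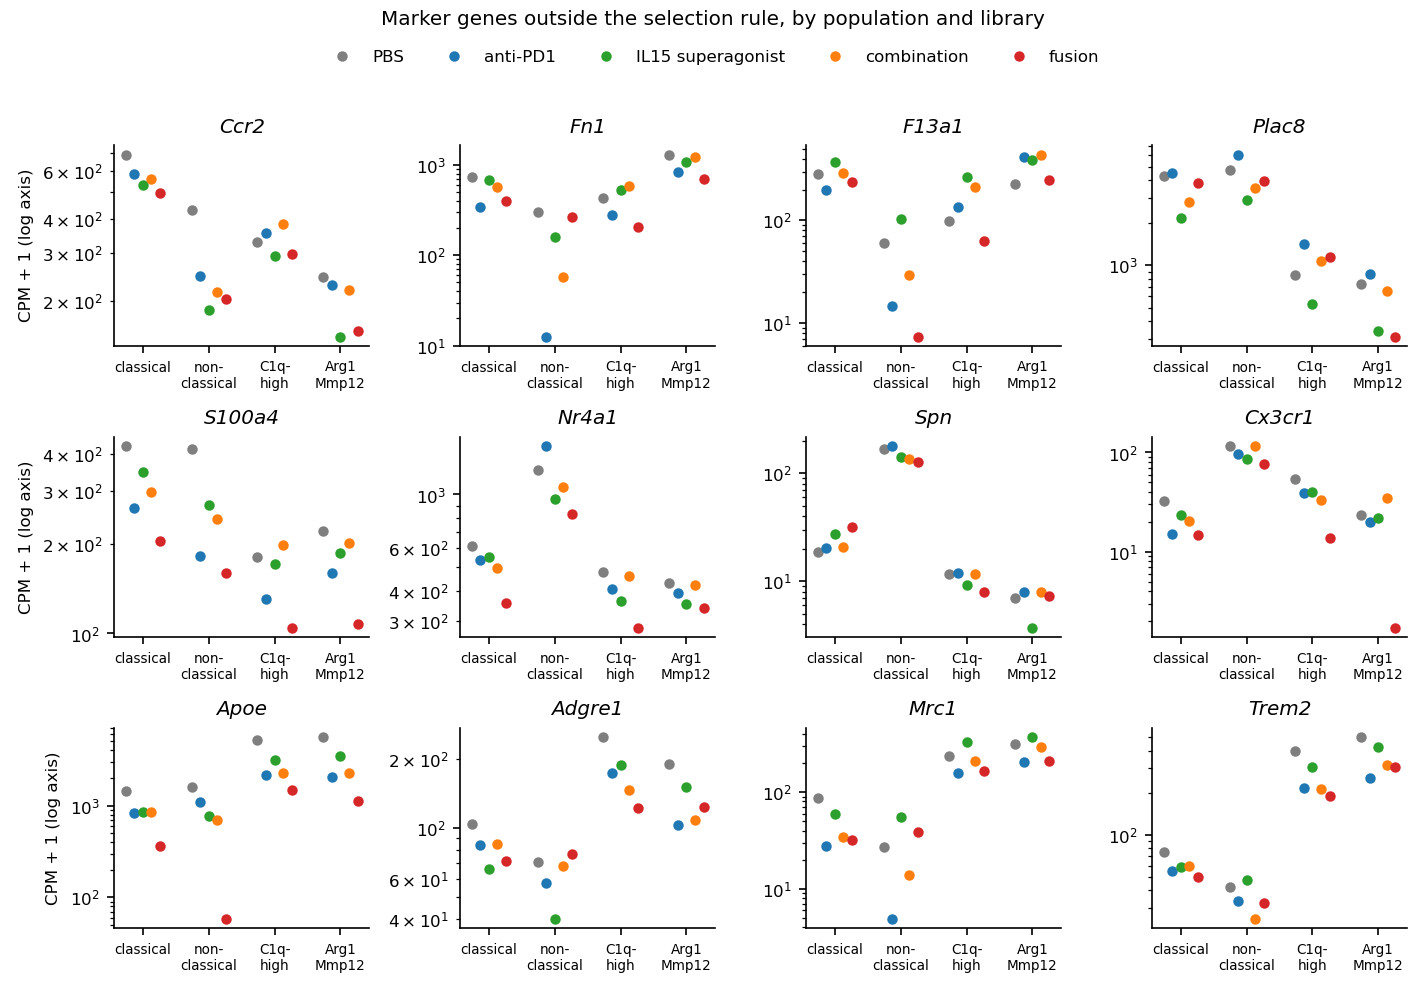
Each panel shows the level (CPM plus 1, logarithmic axis) of a marker gene in the member barcodes, in the nonclassical, C1q-high and Arg1 Mmp12 high gates, with 1 point per library. Ccr2 lay above the other gates in all 5 libraries, whereas Apoe lay below the C1q-high gate in all 5.

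Compared with 3 other gates cut from the same libraries, members held more Ccr2, and less of the macrophage markers than the 2 macrophage gates. The gates were nonclassical monocytes (490 barcodes, at least 3 UMIs of Ace, Adgre4, Treml4 and Ear2), C1q-high macrophages (2986, at least 10 C1q UMIs) and Arg1 Mmp12 high macrophages (1724, at least 10 UMIs of that pair). Ccr2 was higher in members than in each of these gates in 5 of 5 libraries. Plac8 was higher than in the C1q-high and Arg1 Mmp12 high gates in 5 of 5 libraries but lower than in the nonclassical gate in 5 of 5. F13a1, coagulation factor XIII, was above the nonclassical and C1q-high gates in 5 of 5 libraries but above the Arg1 Mmp12 high gate in 1 of 5. Fn1, fibronectin, was above the nonclassical gate in 5 of 5 libraries, above the C1q-high gate in 4 of 5 and above the Arg1 Mmp12 high gate in 0 of 5. Ifitm6 and Gda, further markers of classical monocytes, were above the nonclassical gate in 1 of 5 libraries each. The 9 classical monocyte markers outside the rule summed to 5007 to 7545 CPM in members and 4514 to 7524 CPM in the nonclassical gate, and in anti-PD1 the members lay below that gate, at 6942 against 7524 CPM. Nr4a1, the transcription factor needed for nonclassical monocytes, and Spn were below the nonclassical gate in every library. Macrophage markers outside the rule summed to 542 to 1843 CPM in members, 2534 to 7669 CPM in the C1q-high gate and 4010 to 8942 CPM in the Arg1 Mmp12 high gate. Gates and members were cut from the same cells, so this is a description.

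Classical monocytes made up a smaller share of CD45+ cells in the 3 libraries with an IL15 agent (IL15 superagonist, combination and fusion). They were 9.87% (9.13 to 10.7) of kept barcodes in PBS, 10.6% (9.86 to 11.3) with anti-PD1, 5.79% (5.24 to 6.37) with the IL15 superagonist, 5.98% (5.49 to 6.51) with the combination and 1.097% (0.889 to 1.34) with the fusion, with exact Clopper-Pearson 95% intervals. T-cell barcodes, the largest other class counted, numbered 1382, 1626, 2751, 4172 and 6486 in the same order, so the denominators differed in makeup. Among monocyte and macrophage barcodes alone, members were 30.9% (28.9 to 33.1) in PBS, 29.2% (27.4 to 30.95) with anti-PD1, 33.6% (30.8 to 36.4) with the IL15 superagonist, 36.4% (33.9 to 39) with the combination and 20.5% (16.9 to 24.5) with the fusion. On that basis the IL15 superagonist and combination shares were not below PBS, and only the fusion interval lay below those of the other 4 libraries. A share of sorted cells does not give the number of monocytes per tumour.

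**Figure D2:**
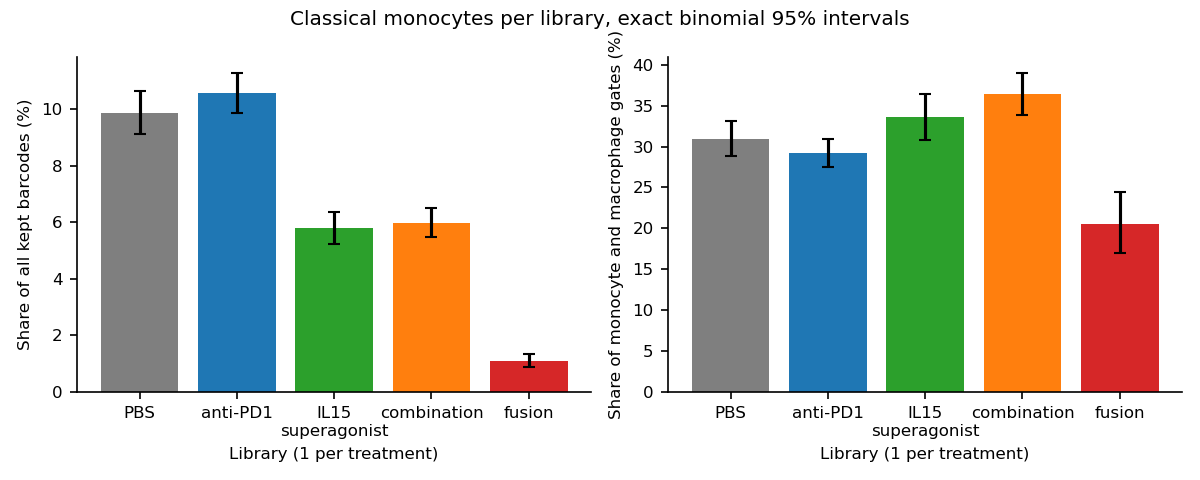
Bars give classical monocytes as a percentage of all kept barcodes (left) and of monocyte and macrophage barcodes (right) in each library, with exact 95% intervals of counting error. The left panel falls from 9.87% in PBS to 1.10% with the fusion, and the right panel ranges from 20.5% with the fusion to 36.4% with the combination.

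Gene levels were compared between libraries by fold. A gene was called higher or lower past 2-fold when the log2 ratio, with 0.5 UMI added to each count, reached 1, among genes with at least 20 UMIs over both libraries. Against PBS, 305 of 9410 genes (3.24%) were higher and 391 (4.16%) lower in anti-PD1, and 408 of 8940 (4.56%) were higher and 478 (5.35%) lower with the IL15 superagonist. With the combination 284 of 9109 (3.12%) were higher and 515 (5.65%) lower, a split of 35.5% higher among called genes that became 46.1% under TMM scaling (352 higher and 412 lower). With the fusion 426 of 8051 (5.29%) were higher and 1098 (13.6%) lower. In Lyz2-positive members the shares of genes higher and lower against PBS were 4.03% and 3.13% with anti-PD1, 3.39% and 5.15% with the IL15 superagonist, 2.9% and 4.84% with the combination, and 5.88% and 12.3% with the fusion. The median log2 ratio over all genes lay between -0.09 and 0.01 in the 7 comparisons made. The 4 comparisons with PBS share that library, and comparisons with combination share that one, so they are not independent of each other.

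Several genes of the type I interferon response were lower in members from all 3 libraries with an IL15 agent than in those from PBS and anti-PD1, most of all Slfn4. Slfn4 belongs to the Schlafen family and is known in mice as an interferon-induced gene of monocytes and macrophages. Its level was 139 CPM (126 to 153) in PBS, 84.2 (76.3 to 92.7) with anti-PD1, 26.6 (20.6 to 33.7) with the IL15 superagonist, 24.3 (19.4 to 29.96) with the combination and 21.5 (11.8 to 36.1) with the fusion. The 3 IL15-agent libraries lay below PBS and anti-PD1, and the intervals of the 2 sets did not overlap. Relative to PBS, Slfn4 was 5.23-fold lower (95% interval 4.03 to 6.88) with the IL15 superagonist, 5.72-fold lower (95% interval 4.53 to 7.31) with the combination and 6.46-fold lower (95% interval 3.804 to 11.9) with the fusion. In Lyz2-positive members it was 6.41-fold lower, 7.24-fold lower and 7.19-fold lower. With the fusion it rested on 14 UMIs. Thinning to 2000 UMIs was done before or after the rule. Values given as after thinning apply the rule to thinned counts, so its limits act on fewer UMIs. The members then change, since barcodes can leave and others can enter by losing UMIs of the excluding genes. With the fusion 82 barcodes met the rule in place of 95. Such values therefore do not show depth alone. Values at 2000 UMIs use the original members and T-cell barcodes, thinned. At 2000 UMIs, a Slfn4 UMI was found in 16.03, 12.1, 3.88, 3.35 and 2.11% of members in PBS, anti-PD1, the IL15 superagonist, the combination and the fusion. The shares of T-cell barcodes were 0.389, 0.308, 0.0364, 0.02397 and 0.0154%.

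Oas3, which makes the second messenger that activates RNase L against viral RNA, was at 109.5 CPM in PBS, 93.2 with anti-PD1, 49.5 with the IL15 superagonist, 46.8 with the combination and 58.4 with the fusion. Mx1, an antiviral GTPase, was at 56.99, 52.3, 32.9, 20.9 and 19.97 CPM in PBS, anti-PD1, the IL15 superagonist, the combination and the fusion, the order of every further set of 5 values. These are the genes that cells switch on against viruses. Stat2, the signal transducer that carries type I interferon signals to the nucleus, was at 75.8, 75.4, 39.6, 34.98 and 39.95 CPM. Trim30a, an interferon-induced ubiquitin ligase, was at 253, 190.2, 116, 110 and 104 CPM. In all 4 genes each IL15-agent library lay below both PBS and anti-PD1. Bst2, tetherin, was at 1012, 789, 486, 489 and 482 CPM, but plasmacytoid dendritic cells and plasma cells also express it, and in Lyz2-positive members it was at 558, 549.9, 292, 297 and 453 CPM. Rsad2, viperin, was at 317, 322, 152, 89.2 and 221 CPM. Its fusion level lay above the other IL15-agent libraries and below PBS and anti-PD1, and 51.4% of the fusion UMIs came from 1 barcode. Isg15, a ubiquitin-like modifier, was at 1310, 1583, 626, 709.8 and 1278 CPM, with fusion close to PBS.

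Promoters of some of these genes are shown as examples, because an interferon-stimulated response element is the sequence that type I interferon factors bind. Each is 300 bases from the RefSeq promoter table (build GRCm38.p6), 250 before and 50 after the annotated start, written 5′ to 3′ on the gene's strand. Capitals mark matches to TTTCNNTTTC or its reverse complement GAAANNGAAA. Oas3 is at chr5:120777610-120777909, minus strand, Rsad2 at chr12:26456403-26456702, minus strand, Stat2 at chr10:128270248-128270547, plus strand, Trim30a at chr7:104465144-104465443, minus strand, and Slfn4 at chr11:83174936-83175235, plus strand.
Oas3: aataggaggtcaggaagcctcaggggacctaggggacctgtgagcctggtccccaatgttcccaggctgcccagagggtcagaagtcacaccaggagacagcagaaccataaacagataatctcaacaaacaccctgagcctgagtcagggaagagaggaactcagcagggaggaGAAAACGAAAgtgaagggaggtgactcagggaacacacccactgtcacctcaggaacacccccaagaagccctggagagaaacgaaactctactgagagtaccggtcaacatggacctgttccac
Rsad2: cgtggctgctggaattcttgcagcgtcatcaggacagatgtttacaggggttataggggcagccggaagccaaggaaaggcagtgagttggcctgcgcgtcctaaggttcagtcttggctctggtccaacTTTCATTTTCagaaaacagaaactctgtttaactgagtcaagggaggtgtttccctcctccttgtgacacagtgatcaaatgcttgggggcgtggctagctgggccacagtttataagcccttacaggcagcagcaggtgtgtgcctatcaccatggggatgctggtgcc
Stat2: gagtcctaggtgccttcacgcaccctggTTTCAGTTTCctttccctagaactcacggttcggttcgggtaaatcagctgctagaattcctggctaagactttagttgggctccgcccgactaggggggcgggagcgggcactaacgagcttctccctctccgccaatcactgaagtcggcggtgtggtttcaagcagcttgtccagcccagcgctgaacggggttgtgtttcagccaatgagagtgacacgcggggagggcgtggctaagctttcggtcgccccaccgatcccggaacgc
Trim30a: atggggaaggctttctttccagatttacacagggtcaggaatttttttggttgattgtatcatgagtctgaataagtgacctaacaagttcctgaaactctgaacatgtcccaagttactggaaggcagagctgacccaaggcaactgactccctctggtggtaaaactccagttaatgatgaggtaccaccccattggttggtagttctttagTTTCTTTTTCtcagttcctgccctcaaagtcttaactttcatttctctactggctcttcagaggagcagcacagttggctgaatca
Slfn4: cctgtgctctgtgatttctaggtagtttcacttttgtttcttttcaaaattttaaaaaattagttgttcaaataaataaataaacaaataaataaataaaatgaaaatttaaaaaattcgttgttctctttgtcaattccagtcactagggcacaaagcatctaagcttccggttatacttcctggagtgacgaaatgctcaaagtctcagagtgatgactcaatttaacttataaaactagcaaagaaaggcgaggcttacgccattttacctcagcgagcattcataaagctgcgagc

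Of the 31 genes of the type I list, 26 had a promoter in that table, and 15 of the 26 (57.7%) held a match, against 1079 of 27025 genes (3.99%) overall. Slfn4, which differed most, had no match in its window, which says only that these letters are not there. Among promoters not printed, Bst2 held 2 matches, Slfn5 held 1 and Ifit2 held 0. In the interferon-gamma list 11 of 22 genes (50%) held a match. In the list of monocyte-to-macrophage maturation genes it was 0 of 14. The motif is thus held by many genes of both interferon lists. A match is a description of sequence and was not tied to any level.

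Over the whole type I list, genes past 2-fold lower than PBS numbered 8 of 30 measured genes with the IL15 superagonist (background 5.35%), 14 of 30 with the combination (background 5.65%) and 4 of 29 with the fusion (background 13.6%), with none higher. The fusion share lies near the background. The list's median log2 ratio was -0.71, -0.87 and -0.31, against -0.03, -0.08 and -0.09 over all genes. When every barcode was thinned to 2000 UMIs before the rule was applied, the fusion median was -1.09. In anti-PD1 the median was 0.18 against -0.06 over all genes, with 0 of 31 lower and 1 of 31 higher (background 3.24%). The higher one was Ifnb1, interferon beta, at 11.2 CPM from 3 barcodes and at 0 UMIs in PBS, so at least 10.97-fold higher against a floor of 3 UMIs.

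The comparison of combination with anti-PD1 does not use the PBS library and showed the same list lower. There 18 of 31 measured type I genes were past 2-fold lower with the combination (background 2.86%), none higher, with a median of -1.10 against -0.03 over all genes. In Lyz2-positive members it was 19 of 31 (background 3.03%), with a median of -1.15. Rsad2 was 3.62-fold lower (95% interval 3.203 to 4.09), Slfn4 3.47-fold lower (95% interval 2.75 to 4.43) and Isg15 2.23-fold lower (95% interval 2.13 to 2.33) with the combination. Between combination and IL15 superagonist the list median was -0.11 against -0.04, with 2 of 30 lower (Ifit3b and Cmpk2; background 2.99%). In the fusion against the combination 4 of 29 were higher (Rsad2, Oasl1, Ifi44 and Cmpk2; background 2.5%) and the median was 0.41 against 0.01. For Rsad2, Oasl1 and Cmpk2, 1 barcode held 51.4%, 46.5% and 70.4% of the fusion UMIs.

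The same list had medians below 0 in the other gates as well. In the combination against anti-PD1 its median log2 ratio was -1.07 in nonclassical monocytes, -0.71 in C1q-high macrophages and -1.10 in Arg1 Mmp12 high macrophages. In IL15 superagonist against PBS it was -0.86, -0.61 and -0.93. These medians lie on both sides of those of the members, -1.10 and -0.71, and the differences between gates were not tested. Slfn4 in the IL15 superagonist against PBS was 4.41-fold lower in the C1q-high gate and 6.63-fold lower in the Arg1 Mmp12 high gate.

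**Figure D3:**
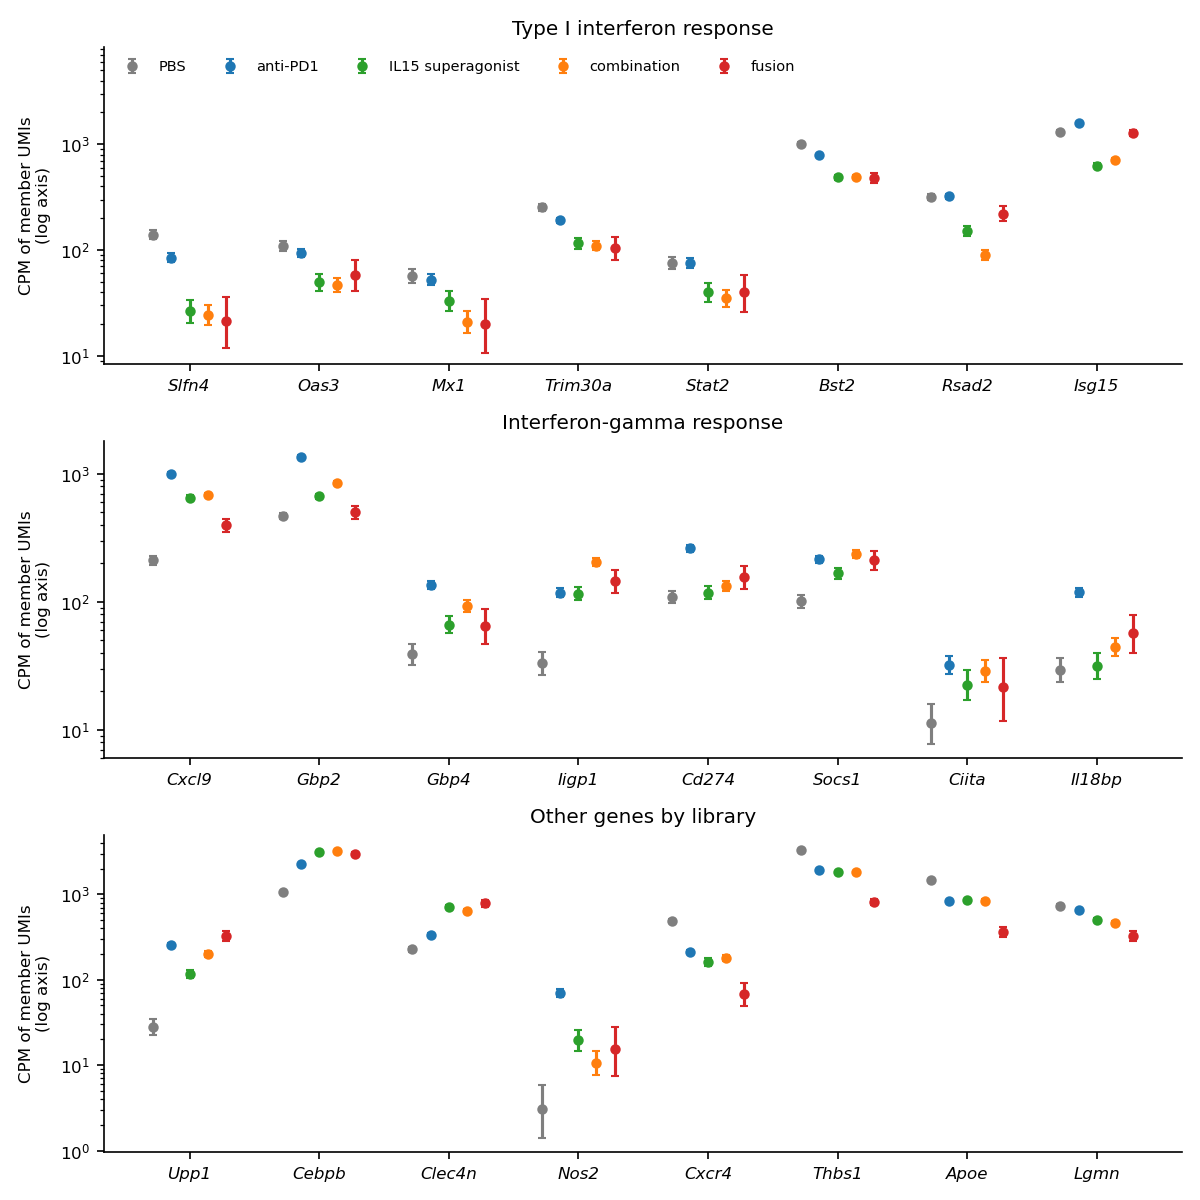
Points give the level of 8 type I interferon genes, 8 interferon-gamma genes and 8 other genes in the members of each library (CPM, logarithmic axis), with exact 95% intervals of counting error. Slfn4 runs from 139 in PBS to 21.5 with the fusion, Cxcl9 is highest in anti-PD1 at 995, and Upp1 is lowest in PBS at 28.3.

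As a list, interferon-gamma response genes differed most from PBS in members from the anti-PD1 library. Cxcl9, a chemokine that attracts T cells bearing Cxcr3, was at 210.2 CPM (194 to 228) in PBS, 995 (967 to 1023) with anti-PD1, 649 (618 to 681) with the IL15 superagonist, 682 (656 to 710.2) with the combination and 395 (348 to 446) with the fusion, and every treated library lay above PBS. It was 4.73-fold higher (95% interval 4.35 to 5.15) with anti-PD1 than in PBS, and 1.65-fold higher, 1.61-fold higher and 2.46-fold higher in the nonclassical, C1q-high and Arg1 Mmp12 high gates. After thinning to 2000 UMIs before the rule, the log2 ratio in members was 1.12 in place of 2.24. At equal depth of 2000 UMIs, 12.02, 34.9, 18.1, 25.6 and 20% of members had a Cxcl9 UMI in PBS, anti-PD1, the IL15 superagonist, the combination and the fusion, against 0.389, 0.861, 0.546, 0.336 and 0.185% of T-cell barcodes. Without thinning, the shares of members were 14.3, 44.03, 23.8, 33.1 and 30.5%. The T-cell gate had median depths of 4403.5, 4545.5, 3904, 4352 and 8398.5 UMIs before thinning.

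Guanylate-binding proteins and interferon-induced GTPases, which attack intracellular parasites, also stood highest in anti-PD1 or combination. Gbp2 was at 467, 1356, 668, 841 and 499 CPM, 2.905-fold higher (95% interval 2.74 to 3.08) with anti-PD1 than in PBS. Gbp4 was at 38.9, 136, 66.2, 92.8 and 64.5 CPM. Iigp1 was at 33.1, 118, 115, 204 and 146 CPM. Unlike Gbp2 and Gbp4, Iigp1 was highest with the combination, where it was 6.17-fold higher (95% interval 4.99 to 7.71) than in PBS and 10.2-fold higher in Lyz2-positive members, where its levels were 19.6, 115, 120, 200.5 and 157 CPM. Il18bp, which neutralises interleukin 18, was at 29.4, 118, 31.7, 44.6 and 56.9 CPM and 4.04-fold higher (95% interval 3.21 to 5.12) with anti-PD1. Cd274, the PD-1 ligand PD-L1, was at 109, 261, 118, 133 and 155 CPM and 2.396-fold higher (95% interval 2.12 to 2.72) with anti-PD1. At 2000 UMIs a Cd274 UMI was found in 14.5, 33.9, 16.8, 17.1 and 30.5% of members and in 9.88, 10.8, 9.62, 9.73 and 5.27% of T-cell barcodes. Socs1, a feedback inhibitor of interferon signalling, was at 101, 215, 167, 235 and 212 CPM, with combination highest.

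Of the interferon-gamma genes measured, 14 of 28 were past 2-fold higher in anti-PD1 than in PBS (background 3.24%), 3 of 27 with the IL15 superagonist (background 4.56%), 9 of 28 with the combination (background 3.12%) and 4 of 27 with the fusion (background 5.29%), with none lower. The medians were 1.04, 0.41, 0.57 and 0.57 in the same order. Iigp1 and Serpina3g were past 2-fold in all 4 comparisons. In the combination against anti-PD1 the median was -0.41, and Il18bp alone passed 2-fold, lower. The nonclassical gate had a median of 1.04 in anti-PD1 against PBS, the C1q-high gate 0.73 and the Arg1 Mmp12 high gate 0.73.

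MHC class II genes, whose products present peptides to CD4 T cells, had medians above PBS in each treated library. Cd74, the invariant chain, was at 7335 CPM in PBS, 14440 with anti-PD1, 12410 with the IL15 superagonist, 15760 with the combination and 13980 with the fusion. H2-Eb1, a beta chain, was at 1603, 3360, 2302, 3352 and 2540 CPM. H2-Aa, an alpha chain, was at 2653, 4760, 3704, 5273 and 4337 CPM. For all 3 genes PBS was lowest. H2-DMb1, part of the peptide editor, was at 281, 622, 674, 765 and 834 CPM and 2.97-fold higher (95% interval 2.66 to 3.31) with the fusion than in PBS. Ciita, the transactivator of these genes, was at 11.3, 32.1, 22.6, 28.8 and 21.5 CPM. Genes past 2-fold higher than PBS numbered 4 of 10 with anti-PD1 (background 3.24%), 2 of 10 with the IL15 superagonist (background 4.56%), 5 of 10 with the combination (background 3.12%) and 2 of 10 with the fusion (background 5.29%), with medians of 0.91, 0.50, 1.03 and 0.69. H2-Oa, which B cells also express, was past 2-fold lower with the IL15 superagonist and fusion, at 21.5, 23.9, 7.53, 14.7 and 1.54 CPM in all members and 5.02, 10.8, 2.36, 3.83 and 1.65 CPM in Lyz2-positive ones. Its fusion levels rest on very few UMIs. The conventional dendritic cell markers outside the rule summed to 397, 523, 316, 395 and 416 CPM in members, highest in anti-PD1, and their part in the class II levels was not tested. MHC class I genes had medians of 0.30, 0.10, 0.04 and 0.03.

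Class II levels varied widely between members of 1 library. At 2000 UMIs per barcode the class II list had a median of 15, 44, 27, 51 and 53 UMIs in PBS, anti-PD1, the IL15 superagonist, the combination and the fusion. In Lyz2-positive members the medians were 13.5, 47, 39, 54.5 and 56.5 UMIs, so the IL15 superagonist value depended most on the Lyz2-low barcodes. In anti-PD1 the lower quartile was 13 and the upper 89, and in PBS they were 6 and 46.75. The interferon-gamma list had medians of 6, 14, 8, 9 and 11 UMIs, and its upper quartile in PBS, 12, was below the anti-PD1 median. The type I list had medians of 24.5, 29, 15, 19 and 22 UMIs with quartiles of 17 to 35 in PBS and 8 to 23.5 with the IL15 superagonist, so the libraries overlapped barcode by barcode. The maturation list was nearly level, at 17, 16, 16, 16 and 14 UMIs. Thinning left out 13 PBS members below 2000 UMIs and none elsewhere.

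**Figure D4:**
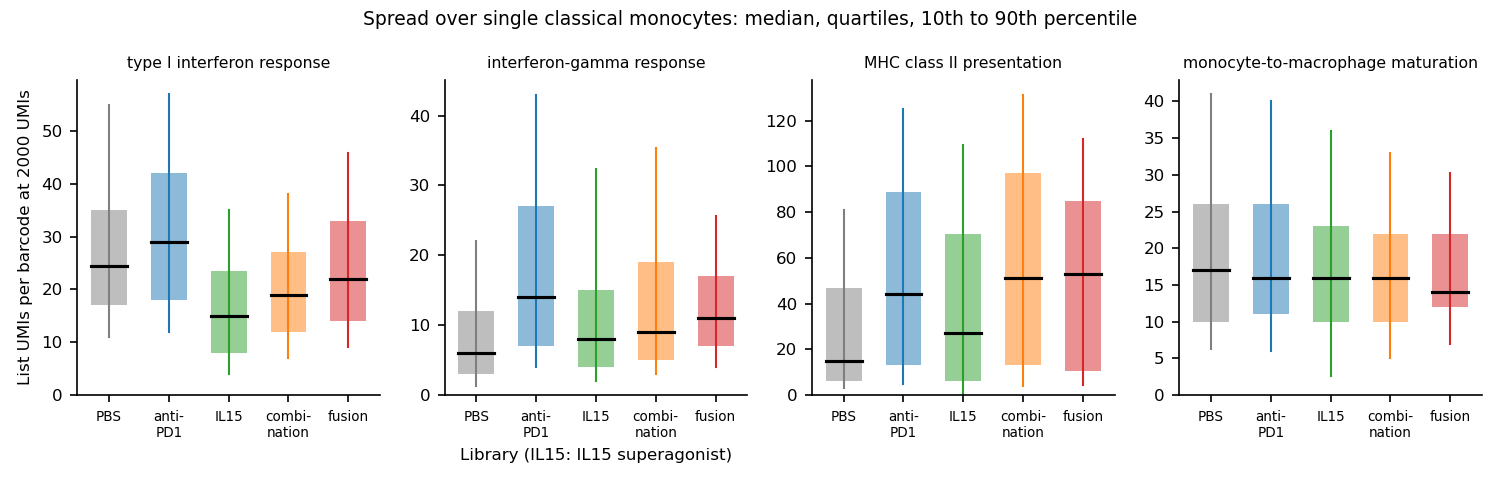
For 4 gene lists, each library's members are summarised by the list UMIs per barcode at 2000 UMIs. Black horizontal lines give the median, thick bars the quartiles and thin lines the 10th to 90th percentile. The interferon-gamma median is 6 in PBS and 14 with anti-PD1, and the type I median is 24.5 in PBS and 15 with the IL15 superagonist.

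Nos2, the inducible nitric oxide synthase, was highest in anti-PD1. It was at 3.07 CPM (1.404 to 5.83) in PBS, 69.4 (62.2 to 77.1) with anti-PD1, 19.8 (14.7 to 26.1) with the IL15 superagonist, 10.7 (7.59 to 14.7) with the combination and 15.4 (7.37 to 28.2) with the fusion, and it was 22.6-fold higher (95% interval 11.8 to 49.8) with anti-PD1 than in PBS, where it had 9 UMIs. UMIs came from 81 of 770 anti-PD1 members, of which 1 barcode gave 5.202%, but from 4 of 95 fusion members. With the combination it was 6.47-fold lower (95% interval 4.62 to 9.3) than in anti-PD1. After thinning to 2000 UMIs before the rule, the log2 ratio of anti-PD1 to PBS was 3.48 in place of 4.42, and that of combination to anti-PD1 was -4.18 in place of -2.68. At 2000 UMIs a Nos2 UMI was found in 0.523, 7.27, 3.101, 1.77 and 0% of members. The 0 of 95 with the fusion has an exact 95% upper bound of 3.81%, so a difference between fusion and PBS was not detectable there. Ass1, which recycles citrulline to arginine, was at 49.8, 103, 69.4, 77.3 and 109 CPM. Arg2, the mitochondrial arginase, was at 39.9, 52.7, 89.97, 82.7 and 104 CPM. Arg2 was higher in all 3 IL15-agent libraries than in PBS and anti-PD1. Over the 6 genes of arginine and nitric oxide metabolism, 3 of 6 were past 2-fold higher in anti-PD1 (background 3.24%), 3 of 6 with the IL15 superagonist (background 4.56%), 2 of 6 with the combination (background 3.12%) and 3 of 5 with the fusion (background 5.29%). Their medians of 0.72, 0.99 and 1.14 with anti-PD1, IL15 superagonist and fusion became 0.05, 0.15 and -0.00804 after thinning.

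Upp1, uridine phosphorylase, which breaks uridine into uracil and ribose phosphate, separated PBS from all treated libraries. It was at 28.3 CPM (22.6 to 35.1) in PBS, 256 (242 to 271) with anti-PD1, 116 (104 to 131) with the IL15 superagonist, 199 (184 to 214) with the combination and 326 (283 to 373) with the fusion. It was 9.05-fold higher (95% interval 7.25 to 11.4) with anti-PD1, 4.11-fold higher (95% interval 3.21 to 5.31) with the IL15 superagonist, 7.02-fold higher (95% interval 5.59 to 8.93) with the combination and 11.5-fold higher (95% interval 8.88 to 15.01) with the fusion than in PBS. The log2 ratio in anti-PD1 was 3.17, and 2.55 after thinning. The anti-PD1 fold was 5.84-fold higher in the nonclassical gate, 12.7-fold higher in the C1q-high gate and 8.62-fold higher in the Arg1 Mmp12 high gate. At 2000 UMIs, 4.36, 24.03, 14.5, 20.3 and 28.4% of members had an Upp1 UMI, against 0.389, 1.17, 0.291, 0.336 and 0.786% of T-cell barcodes.

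Several glycolysis genes were lowest in PBS. Aldoa, which splits fructose bisphosphate, was at 412, 1149, 1078, 988 and 1526 CPM. Tpi1, which interconverts the products, was at 242, 708, 512, 479 and 694 CPM. Ldha, which forms lactate, was at 655, 1182, 1130, 1066 and 1195 CPM. In each the 4 treated libraries lay above PBS. Pgam1, a later enzyme of the pathway, was at 291, 719.7, 539, 529 and 669.9 CPM. Slc2a1, the glucose transporter Glut1, was at 82.9, 193, 157, 134 and 141 CPM. Of 23 measured genes of glycolysis and hypoxia, 8 were past 2-fold higher in anti-PD1 (background 3.24%), 3 with the IL15 superagonist (background 4.56%), 2 with the combination (background 3.12%) and 4 with the fusion (background 5.29%), where 3 were lower (background 13.6%). The medians were 0.85, 0.34, 0.45 and 0.25, and that of combination became -0.23 after thinning. In T-cell barcodes Aldoa was 2.1-fold higher, 1.76-fold higher, 1.81-fold higher and 3.19-fold higher in the 4 treated libraries. In members it was 2.79-fold higher, 2.62-fold higher, 2.399-fold higher and 3.704-fold higher, and the part of a library-wide shift in this was not tested. Vegfa, the vessel growth factor, went another way, at 208, 212, 124, 115 and 67.6 CPM, lower in the 3 IL15-agent libraries. Pfkfb3, which makes the activator of phosphofructokinase, did so too, at 52.9, 90.01, 33.3, 34.98 and 23.1 CPM.

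Cebpb and Clec4n were higher in the libraries with an IL15 agent. Cebpb, a transcription factor of emergency myelopoiesis and inflammation, was at 1065, 2264, 3090, 3194 and 2979 CPM. Every treated library lay above PBS for Cebpb, with anti-PD1 between PBS and the IL15-agent libraries. Cebpb was 2.901-fold higher (95% interval 2.78 to 3.02) with the IL15 superagonist than in PBS, but in T-cell barcodes it was also 2.08-fold higher. Clec4n, the fungal receptor dectin 2, was at 226 CPM (209 to 244) in PBS, 336 (320.1 to 352) with anti-PD1, 710.3 (678 to 744) with the IL15 superagonist, 645 (619 to 672) with the combination and 784 (717 to 855) with the fusion, and each IL15-agent library lay above PBS and anti-PD1. It was 3.14-fold higher (95% interval 2.87 to 3.44) with the IL15 superagonist, 2.86-fold higher (95% interval 2.62 to 3.12) with the combination and 3.47-fold higher (95% interval 3.08 to 3.899) with the fusion than in PBS. Kcna3, a potassium channel, was at 4.78, 12.4, 40.4, 27.4 and 41.5 CPM. Fosl1, a subunit of the AP-1 factor, was at 6.48, 11.03, 30.9, 20.03 and 41.5 CPM. Cd80, a ligand of Cd28, was at 32.8, 31.1, 61.04, 56.1 and 62.99 CPM. In these 3 genes too, every IL15-agent library lay above PBS and anti-PD1.

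Genes whose lowest level in the 3 IL15-agent libraries was at least 1.5 times the highest of PBS and anti-PD1, among genes with at least 50 UMIs over the 5 libraries, numbered 84 of 8941 (0.939%), and those lower by the same gap 108 (1.21%). In Lyz2-positive members they were 37 (0.446%) and 95 (1.15%) of 8296. Of the 31 type I genes, 6 were lower by this rule in all members (Oas3, Mx1, Trim30a, Slfn4, Bst2 and Stat2), and 6 in Lyz2-positive members, with Slfn5 in place of Bst2. Among all members the genes with the widest gap upward were of killer lymphocytes, such as Gzmg, Gzmd, Gzmb, Nkg7, Cd160 and Il2rb. Gzmb was at 18.4, 26.5, 229, 95.6 and 163 CPM in all members and at 12.1, 7.37, 8.97, 9.26 and 51.2 CPM in Lyz2-positive ones. In Lyz2-positive members the list of 12 included Alpk2, Kcna3, Ccl24, Clec4n and Fosl1. Downward it included Cd79a, Slfn4, Pml, Klf11 and Ccr7. The widest downward gap was that of Cd79a, a B-cell marker, at 7.53, 22.1, 0, 0 and 0 CPM in Lyz2-positive members. Pml, which forms nuclear bodies and is induced by interferon, was at 42.7, 40.7, 20.2, 20.03 and 16.9 CPM in all members and 33.9, 35, 11.3, 16.6 and 11.6 CPM in Lyz2-positive ones.

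The corresponding split on the anti-PD1 antibody, anti-PD1, combination and fusion against PBS and IL15 superagonist, held fewer genes, 15 higher (0.168%) and 42 lower (0.47%), or 23 (0.277%) and 30 (0.362%) in Lyz2-positive members. Upp1 and Ly6i, a relative of Ly6c2, were higher, with Ly6i at 104, 369, 142, 292 and 536 CPM. Mrc1, the mannose receptor of macrophages, was lower, at 84.98, 26.5, 58.7, 33.6 and 30.7 CPM, and so was Emp1, a membrane protein, at 131, 68.8, 156, 77.02 and 46.1 CPM. No interferon gene of either list met this rule in either direction.

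The neutrophil chemokines Cxcl1 and Cxcl2 were highest with the IL15 superagonist alone, and the chemokines Ccl7 and Ccl3 were lowest with the fusion. Cxcl1, a ligand of Cxcr2, was at 29.4, 58.9, 201, 93.7 and 41.5 CPM. Cxcl2, another, was at 2366, 3646, 5320, 3525 and 3414 CPM. With the combination Cxcl1 was 2.15-fold lower (95% interval 1.87 to 2.48) than with the IL15 superagonist. Ccl2, the main ligand of Ccr2, was at 889, 1692, 1702, 1072 and 1054 CPM. Ccl7, a further ligand of Ccr2, was at 568, 691, 655, 474 and 137 CPM, 3.46-fold lower (95% interval 2.798 to 4.34) with the fusion than with the combination, but after thinning the log2 ratio was -0.42, inside 2-fold. Ccl3, which acts on Ccr1, was at 269, 396, 373, 276 and 93.7 CPM. Ccl24, an eosinophil chemokine, was at 104, 68.8, 403, 245 and 257 CPM, and 1 barcode held 29.3%, 33.03% and 37.1% of its UMIs with the IL15 superagonist, combination and fusion. Past 2-fold against PBS, 1 of 16 chemokines measured were higher in anti-PD1 (background 3.24%), 5 of 16 with the IL15 superagonist (background 4.56%), 4 of 16 with the combination (background 3.12%) and 2 of 16 with the fusion (background 5.29%), with 4 lower with the fusion (background 13.6%). The fusion median was 0.27, and -0.68 after thinning.

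Ccl5, which the list counts as higher with the IL15 superagonist, combination and fusion, was at 271, 498, 1839, 1010 and 567 CPM in all members and at 252, 272, 162, 294 and 439.6 CPM in Lyz2-positive ones, where IL15 superagonist was lowest. Inflammatory cytokines had small median differences. Il1b, interleukin 1 beta, was at 3373, 5243, 5521, 5089 and 4391 CPM. Tnf was at 147, 218, 380.5, 282 and 381 CPM, with the 3 IL15-agent libraries above the others. Il6 was at 29.4, 20.2, 21.01, 19.8 and 4.61 CPM. Osm, oncostatin M, was at 354, 429.8, 281, 327 and 158 CPM and, like Il6, lowest with the fusion. The fusion level of Il6 rests on few UMIs. Il27, a cytokine that interferons induce, was highest in anti-PD1, at 4.44, 20.6, 6.34, 9.31 and 12.3 CPM. Among the 26 cytokines and sensors the medians against PBS were 0.08, 0.22, 0.17 and 0.08.

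Members from fusion had the lowest levels of several macrophage genes. Apoe, apolipoprotein E, was at 1457 CPM (1414 to 1501) in PBS, 826 (802 to 852) with anti-PD1, 856 (820.4 to 893) with the IL15 superagonist, 846 (816 to 877) with the combination and 361 (316 to 410.3) with the fusion. It was 4.04-fold lower (95% interval 3.54 to 4.62) than in PBS and 2.34-fold lower (95% interval 2.05 to 2.69) than with the combination. Thbs1, thrombospondin 1, was at 3286, 1938, 1827, 1843 and 817 CPM and 4.02-fold lower (95% interval 3.68 to 4.39) than in PBS. Maf, a transcription factor of macrophages, was at 104, 96.6, 62.6, 49.9 and 32.3 CPM. For Apoe, Thbs1 and Maf, fusion was the lowest of the 5 libraries and PBS the highest. Ms4a7, a membrane protein of macrophages, was at 69.96, 33.5, 21.8, 36.1 and 7.68 CPM. Lgmn, a lysosomal protease, was at 738, 658, 503, 462 and 326 CPM. Lpl, lipoprotein lipase, was the reverse, at 70.3, 179.6, 239, 208 and 329 CPM. Axl, a receptor for dying cells, was highest with the fusion, at 60.8, 57.7, 41.2, 38.4 and 99.9 CPM.

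Of the maturation list's 20 genes measured in the fusion against PBS, 6 were past 2-fold lower (Apoe, Ms4a7, Gpnmb and Maf among them; background 13.6%) and 1, Lpl, higher. The medians against PBS were -0.31, -0.39, -0.46 and -0.41, so the list's median was below that of all genes in every treated library. In the fusion against the combination 2 were lower (Apoe and Ms4a7; background 6.07%) and 2 higher (Cd63 and Axl; background 2.5%), with a median of -0.17. Housekeeping genes had medians of 0.05, 0.28, 0.23 and 0.42 against PBS, with none past 2-fold.

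Cxcr4, the receptor for the marrow-retention chemokine Cxcl12, was at 490.1 CPM (465 to 516) in PBS, 212 (199 to 225) with anti-PD1, 161 (146 to 177) with the IL15 superagonist, 179 (166 to 194) with the combination and 67.6 (49.1 to 90.8) with the fusion and 7.25-fold lower (95% interval 5.37 to 10.02) with the fusion than in PBS. After thinning its log2 ratio of fusion to PBS was -3.46 in place of -2.84. T-cell barcodes had 283, 215, 218, 190 and 25.5 CPM in the same order, 11.1-fold lower with the fusion than in PBS, so this difference was not limited to monocytes. Immediate early genes, induced within minutes of a stimulus including tissue digestion, were measured next: 7 of 26 genes of the immediate early and heat shock list were past 2-fold below PBS with the fusion (background 13.6%). The list had 1 gene above, Hspb1, and all 34 of its fusion UMIs came from 1 barcode. Jun was at 291, 309.9, 244, 209.9 and 64.5 CPM. Fosb was at 320.5, 246, 248, 286 and 135 CPM. Fos was at 974, 1662, 1033, 1260 and 532 CPM, with fusion lowest in all 3 genes. The part of sample handling in these levels was not tested.

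Fc receptors bind antibody, and Fcgr4 was highest in anti-PD1. Fcgr4, an activating receptor for IgG that nonclassical monocytes carry, was at 143, 343, 121, 158 and 155 CPM, 2.39-fold higher (95% interval 2.15 to 2.67) with anti-PD1 than in PBS, and 2.17-fold lower (95% interval 1.97 to 2.39) with the combination than in anti-PD1. Fcgr3 was at 305, 664, 639, 649 and 533 CPM, higher in all treated libraries than in PBS. Of the receptors for the agents themselves, Il2rg, the common gamma chain, was at 143, 250.2, 325, 269 and 341 CPM. Il15ra, which presents IL15 to neighbouring cells, was at 13.7, 26.5, 12.7, 11.6 and 16.9 CPM and highest in anti-PD1. Il2rb, the signalling chain of lymphocytes, was at 9.897, 14.4, 133, 45.99 and 69.1 CPM in all members and 6.27, 4.61, 7.08, 7.98 and 16.5 CPM in Lyz2-positive ones. Il15 itself was at 22.2, 31.7, 22.6, 21.2 and 16.9 CPM. Pdcd1lg2, the other PD-1 ligand, was at 8.87, 38.9, 47.2, 26.5 and 36.9 CPM and lowest in PBS, also in Lyz2-positive members (7.11, 34.5, 24.1, 20.4 and 36.4 CPM). S100a4 was at 424, 262, 345, 297 and 203 CPM, highest in PBS. Cell-cycle genes were sparse: the list summed to 317 to 413 CPM, against 2006 to 6094 CPM in T-cell barcodes, and a Mki67 UMI was found in 0.348, 0.909, 0.775, 1.18 and 2.11% of members at 2000 UMIs.

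Between fusion and combination, which pair the same specificities, 205 of 8190 genes (2.5%) were past 2-fold higher with the fusion and 497 (6.07%) lower. Between combination and anti-PD1, 203 of 9472 (2.14%) were higher and 271 (2.86%) lower, and between combination and IL15 superagonist 79 of 8985 (0.879%) and 269 (2.99%). In Lyz2-positive members the shares higher and lower were 2.9% and 5.04%, 1.28% and 3.03%, and 0.975% and 1.51% in that order. These 3 comparisons share the combination library. Clec4n was 1.92-fold higher (95% interval 1.802 to 2.05) with the combination than in anti-PD1, and Upp1 1.71-fold higher (95% interval 1.49 to 1.96) than with the IL15 superagonist. Saa3, an acute-phase protein, was at 14.3, 39.5, 7.13, 49.1 and 7.68 CPM, from 25 barcodes with the combination and 4 with the IL15 superagonist. Its log2 ratio between those 2 libraries was 2.75, but 2.06 with at least 10 marker UMIs, 3.98 in Lyz2-positive members and 6.06 after thinning, so its size is not settled. Mid1, a ubiquitin ligase, was at 28.7, 24.1, 18.2, 37.5 and 4.61 CPM. Dmkn, dermokine, was at 157, 60.1, 114, 111 and 23.1 CPM and, like Mid1, lowest with the fusion. The fusion level of Mid1 rests on few UMIs. After thinning, the log2 ratio of fusion to combination was -0.93 for Mid1, inside 2-fold, and -1.02 for Dmkn, in place of -2.81 and -2.22.

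**Figure D5:**
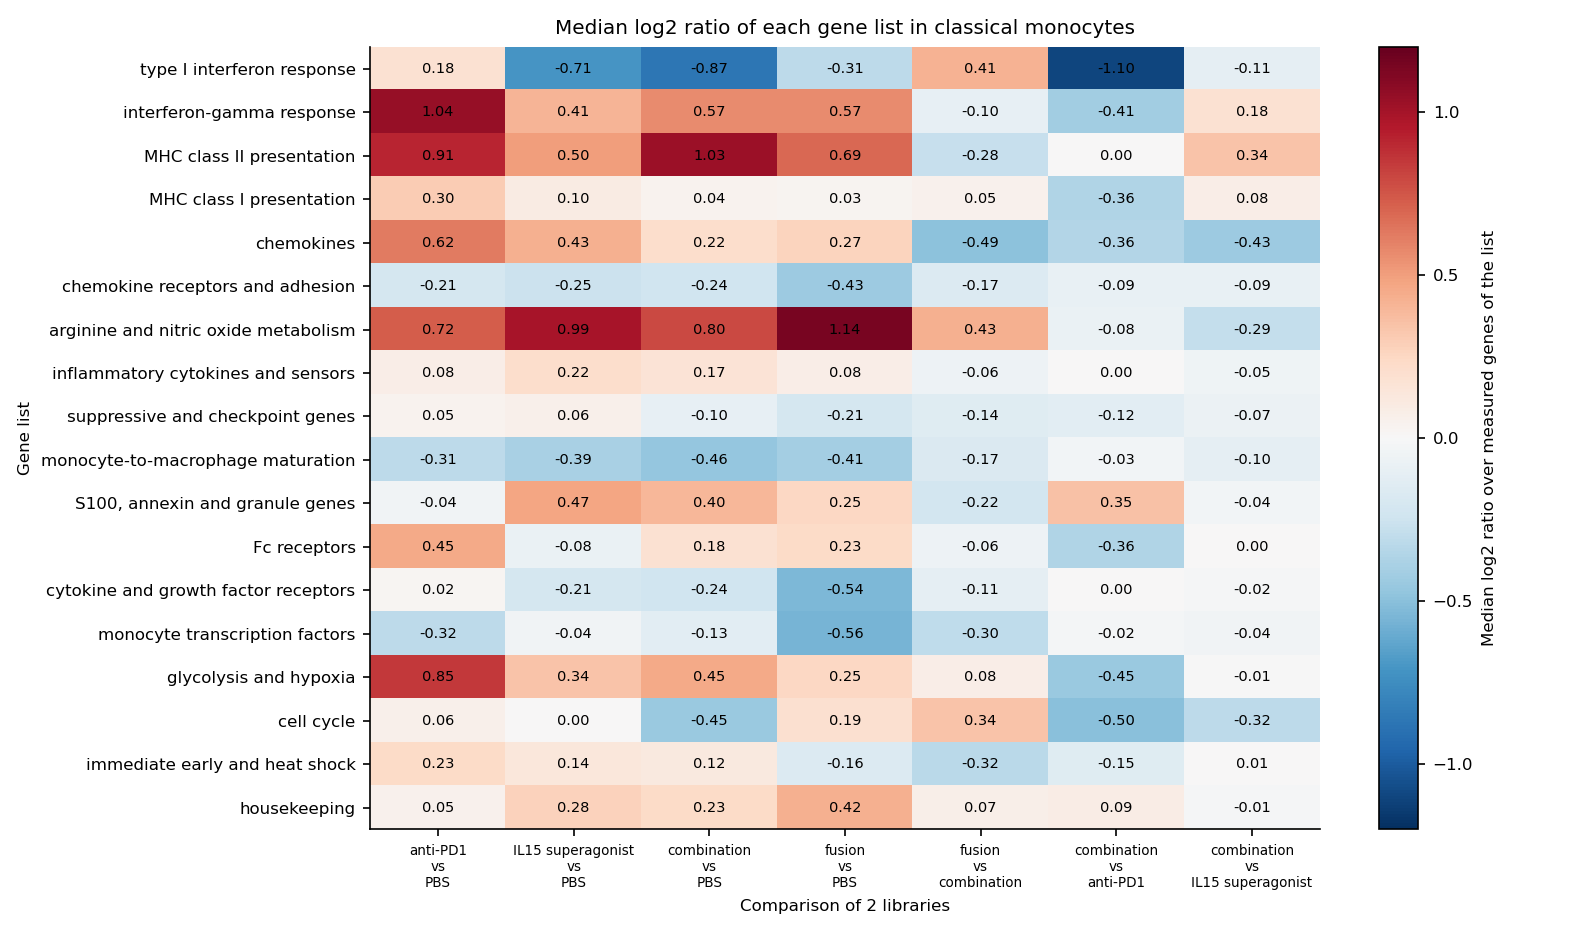
Cells of the grid give the median log2 ratio of 18 gene lists in 7 comparisons of member levels between libraries. The type I list reaches -1.10 in the combination against anti-PD1, and the interferon-gamma list 1.04 in anti-PD1 against PBS.

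Several of the genes with the most extreme folds came from few barcodes and are given as such. The naming rule took the 10 genes each way with the largest conservative fold in each comparison. Of these 140 entries, 99 had at least 20% of the higher library's UMIs in 1 barcode, 82 were found in fewer than 20 barcodes, and 39 had neither limit. Il12b in PBS came from 2 barcodes, and Ccl8, a macrophage chemokine, had 71.5% of its PBS UMIs in 1. S100a8 was at 9.56, 40.7, 50.7, 57.5 and 18.4 CPM in all members and 11.7, 46.5, 28.8, 39.9 and 19.8 CPM in Lyz2-positive ones, and its UMIs in all members came from 11, 46, 15, 20 and 7 barcodes. Gzma, a granule protease of killer lymphocytes, was at 36.2, 91.01, 1097, 599 and 199.7 CPM in all members. In Lyz2-positive ones it was at 35.1, 15.4, 21.2, 67.4 and 150.4 CPM. Without the Lyz2-low barcodes Gzma was inside 2-fold with the IL15 superagonist and the combination against PBS. In the combination against anti-PD1 it stayed past 2-fold higher. Mzb1, an endoplasmic reticulum protein of plasmacytoid dendritic and plasma cells, was at 182, 22.2, 25.4, 67.99 and 15.4 CPM, and 1.67, 3.68, 0.945, 0 and 0 CPM in Lyz2-positive members.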

How the data were processed

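Single-cell RNA libraries were prepared from live CD45+ cells of B16-F10 tumours, with 1 library for each of 5 treatments. The authors deposited, for each library, a matrix of raw UMI counts (genes by barcodes) made with Cell Ranger 2.1.1 and build mm10, per the submitters' processing notes. Which barcodes count as cells was decided before deposit, and no doublet caller was run here, so barcodes that hold 2 cells can be among the members.

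Members were found by the rule on raw counts, and their UMIs were summed per library. Levels are CPM with exact Poisson 95% intervals, ratios have exact conditional intervals, and shares have exact Clopper-Pearson intervals. Library depth limits them: the lowest barcode held 1751 UMIs, and all intervals cover counting error only. No test between treatments was made. Members and gene lists were chosen with earlier results of these data known. Named genes are the 10 highest and 10 lowest per comparison by the interval bound nearest to 1, the 12 each way per 3-against-2 split, and examples from the lists. Mitochondrial, ribosomal, predicted, receptor and immunoglobulin segment genes and the genes of the rule were left out of that ranking.

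Alternatives changed the marker limit, depth, mitochondrial limit, scaling (TMM factors from edgeR 4.0.16 or median of ratios), UMI filter, averaging over barcodes and split gap. Removing Lyz2-low members was chosen after seeing the data. Acod1 and Cebpd were not matched by symbol. Python 3.11.15, numpy 2.4.6, scipy 1.17.1 and pandas 2.3.3 were used, and figures were drawn with matplotlib 3.10.9. Promoters came from RefSeq on GRCm38.p6.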

Additional observations from a re-analysis of the deposited data

How the results depend on the processing

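No paired analysis was possible because each treatment has 1 library. The share of members among kept barcodes moved with the marker limit. With at least 3 marker UMIs it was 12.4%, 12.9%, 6.88%, 6.91% and 1.37% in PBS, anti-PD1, the IL15 superagonist, the combination and the fusion, and with at least 10 it was 5.60%, 6.79%, 3.51%, 4.04% and 0.866%. For PBS, anti-PD1, the IL15 superagonist and the combination it was 7.86%, 8.17%, 4.04% and 4.71% without barcodes of another lineage, 8.29%, 9.17%, 4.55% and 5.18% without Lyz2-low barcodes, and 6.80%, 6.79%, 3.57% and 3.98% after thinning to 2000 UMIs. Under each of these settings the 3 IL15-agent libraries stayed below PBS and anti-PD1.

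Counts of genes past 2-fold followed the UMI filter. With at least 50 UMIs, genes higher and lower numbered 175 and 202 for anti-PD1, 221 and 276 for IL15 superagonist, 152 and 290 for combination and 238 and 707 for fusion against PBS. They numbered 57 and 238 for fusion against combination, 93 and 134 for combination against anti-PD1 and 23 and 107 for combination against IL15 superagonist. With no filter beyond 1 UMI they were 959 and 1701, 1715 and 1974, 1539 and 2084, 1479 and 1762, 1295 and 1136, 1410 and 1760, and 1369 and 1631 in that order of comparisons. Without barcodes of another lineage, 253 genes were higher in IL15 superagonist than in PBS, 125 higher in combination than in anti-PD1 and 116 lower in combination than in IL15 superagonist. Without Lyz2-low barcodes the last pair of counts was 114 and 125. After thinning, 652 genes were lower in fusion than in PBS, and 126 were higher and 127 lower in combination than in IL15 superagonist. The splits held 39 genes higher and 12 lower for the IL15 agent and 5 and 3 for anti-PD1 with a 2-fold gap, 41 and 53, and 4 and 13, with at least 200 UMIs, and 37 and 23 higher without Lyz2-low barcodes.

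Over all settings, 938 log2 ratios of named genes kept direction and size, 165 moved and 11 reversed. The 938 include 107 with at least 50 UMIs and 140 with no filter beyond 1 UMI. A UMI filter cannot change a gene's own ratio, so those outcomes were fixed beforehand. They also include 140 under TMM and 140 under median-of-ratios scaling, whose factors lay close to 1. The total therefore overstates how stable the ratios were. Under thinning alone, 20 kept them, 39 moved and 9 reversed, and the rest of the 140 named entries had no value there. The cause was not tested. After thinning, Ccl8 in anti-PD1 against PBS had a log2 ratio of 1.44, and the arginine and nitric oxide list in fusion against PBS a median of -0.00804. Without Lyz2-low barcodes, Mzb1 in anti-PD1 against PBS was at 1.01 and Gzma in IL15 superagonist against PBS at -0.72. After thinning, Gzme, Gzmd, Gzmg and Xcl1 in fusion against combination were at -0.64, -1.51, -5.41 and -0.31, and Gzme, Gzmc, Gzmg and Gzmd in combination against IL15 superagonist at 4.68, 0.31, 6.95 and 4.99. Of the list medians, 1247 values kept direction and size, 7 moved and 1 reversed. Limits are the 95 barcodes of fusion, 1 library per treatment, and free RNA, which was not modelled.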
